A study of Mus musculus with 11 samples.

Results

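Rbp4, Stra6, Rdh5, Dhrs3, Aldh1a1, Aldh1a2, Aldh1a3, Crabp1 and Crabp2, the genes of retinoid transport and retinoic acid synthesis described here, are 9 of the 26921 genes listed in the count files. They were chosen by name, for their place in the pathway, with earlier results of these data known. They are followed through endothelial cells (ECs), choroid plexus epithelial cells and fibroblast-like cells of the mouse cerebral cortex. The study profiled cortical cells of C57BL/6 mice by droplet-based 3′ single-cell RNA sequencing, after papain and Liberase digestion and depletion of myelin in an albumin gradient, with the meninges taken off by dabbing the brain on filter paper. There were 4 Juvenile libraries (postnatal day 10), 3 Adult libraries (7 to 11 weeks), 2 Aged libraries (18 months) and 2 libraries of experimental autoimmune encephalomyelitis (EAE), taken from mice of 7 to 11 weeks at the peak of disease. EAE is an autoimmune model of multiple sclerosis, induced here with a myelin oligodendrocyte glycoprotein peptide in complete Freund's adjuvant followed by pertussis toxin, and the Adult group was untreated. Each library pooled cells from several mice, 6 for Juvenile and Adult and 3 for Aged and EAE, so that no animal can be followed on its own. Since the labels do not say that libraries of a group came from separate animals, p-values measure only the spread between these libraries, which may be technical.

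The 11 libraries held 15755504 to 34326349 unique molecular identifiers (UMIs, a count of captured transcripts), and 50625 of 54646 barcodes passed the filters on cells. All 9 genes had a UMI in 7 libraries, and 7 or 8 of them in each of the other 4. Libraries Juvenile 3 and 4 go against the study's statement that mice were female: the Y-linked genes Ddx3y, Eif2s3y and Kdm5d reached 107 and 110 per 1000000 UMIs there, against 1 UMI in the other 9 libraries together, and Juvenile calls of members in ECs and choroid plexus are therefore also given without them. Adult 1 stood apart from Adult 2 and 3, with few ECs and a large cluster of cells that mixed red blood cell and EC transcripts and was left unnamed. The pairs Juvenile 1 and 2 and Adult 2 and 3 differed by no more than random divisions of their joined cells in both ECs and microglia, and each was counted as 1 sample in the tests, leaving 3 Juvenile, 2 Adult, 2 Aged and 2 EAE samples. The pairs Juvenile 3 and 4, Aged 1 and 2 and EAE 1 and 2 were within that range in ECs as well, but not in microglia, and were kept as separate samples, so that p-values in ECs may rest on technical spread. Library pairs shared at most 1.53% of the barcodes of the smaller library.

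Cells were named from marker genes after clustering without the 9 members. This gave 19640 ECs (2852 Juvenile, 4215 Adult, 5659 Aged and 6914 EAE), 6588 choroid plexus epithelial cells (2000, 2855, 837 and 896 in the same order) and 1146 fibroblast-like cells, of which 972 were Juvenile and only 62, 75 and 37 were Adult, Aged and EAE. Left unnamed, and so not among the ECs, were 229 cells nearest to ECs and led by the cell cycle genes Cdc20 and Birc5. A further 622 cells that scored for both microglia and ECs were also left unnamed. All 10 EC markers and all 11 choroid plexus markers were detected in their class in every group, and 10, 10, 9 and 9 of the 10 fibroblast-like markers in Juvenile, Adult, Aged and EAE cells. All 10 EC markers were also detected in choroid plexus and fibroblast-like cells of every group. The clusters were named from these lists, so detection is not a test of the names. Levels are in CPM, the UMIs of a gene per 1000000 UMIs summed over the cells of a class in a library. They are compared between libraries and not between genes. Fold changes are on the log2 scale against Adult, with the standard error (SE) and the Benjamini-Hochberg adjusted p of edgeR's quasi-likelihood test over all genes tested in that class, called at 0.05. The 3 contrasts of a class share the Adult libraries and are not independent of each other.

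Retinol, the alcohol form of vitamin A, travels in blood and cerebrospinal fluid bound to retinol binding protein and transthyretin, and enters many cells through the membrane receptor STRA6. Inside the cell, retinol dehydrogenases oxidise it reversibly to retinal, and the ALDH1A enzymes oxidise retinal irreversibly to retinoic acid, the ligand of nuclear retinoic acid receptors. In brain the pathway is known for retinoic acid made by meningeal and perivascular fibroblasts during cortical development, and for retinol uptake at the blood-brain barrier and the choroid plexus.

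Stra6, called higher in Aged, EAE and Juvenile ECs, Rdh5, called lower in Juvenile choroid plexus, and Rbp4, found here in fibroblast-like cells, are shown by the 250 bases before a RefSeq transcription start that hold no annotated exon. The windows are on GRCm38.p6, at chr9:58128838-58129087 on the plus strand (within the Stra6 gene, before an internal start), chr10:128919298-128919547 on the minus strand (within Rdh5 and the overlapping Bloc1s1) and chr19:38125322-38125571 on the minus strand (before Rbp4, outside any gene). Capitals mark the binding sequence of a retinoic acid receptor monomer where it was found.
Stra6: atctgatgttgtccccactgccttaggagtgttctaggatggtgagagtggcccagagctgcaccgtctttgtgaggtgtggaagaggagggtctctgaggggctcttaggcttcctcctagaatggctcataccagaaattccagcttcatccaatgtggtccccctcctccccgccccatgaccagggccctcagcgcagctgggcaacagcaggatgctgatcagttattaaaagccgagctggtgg
Rdh5: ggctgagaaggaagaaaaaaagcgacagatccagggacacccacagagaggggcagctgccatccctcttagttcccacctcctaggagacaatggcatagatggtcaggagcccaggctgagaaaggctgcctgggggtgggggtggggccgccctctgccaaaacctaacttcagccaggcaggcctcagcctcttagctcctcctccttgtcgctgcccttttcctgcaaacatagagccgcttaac
Rbp4: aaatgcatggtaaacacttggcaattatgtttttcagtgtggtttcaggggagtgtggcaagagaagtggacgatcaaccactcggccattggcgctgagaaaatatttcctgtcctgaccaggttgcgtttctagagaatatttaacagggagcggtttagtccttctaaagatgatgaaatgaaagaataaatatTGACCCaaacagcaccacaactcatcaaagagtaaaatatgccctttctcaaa
The forms of this 6-base element searched on both strands were AGGTCA or AGTTCA or GGGTCA or GGTTCA. Of 14 such windows for the 7 members found in the RefSeq table, 2 held at least 1 match, 53 bases before the Rbp4 start and 49 bases before the second Aldh1a1 start, while 38.6% of all 32851 promoters in the table held 1. None of the 14 held a direct repeat with 1 to 5 bases between the copies, against 0.524% of all promoters. Aldh1a3 and Crabp2 were not matched.

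In the levels of all members by class and library, Stra6 and Dhrs3 were detected in all 3 classes. Among these 3 classes, Rdh5 was highest in choroid plexus, with Aldh1a3 at low level in ECs. Rbp4, Aldh1a1, Aldh1a2, Crabp1 and Crabp2 were, of the 3 classes, mainly in fibroblast-like cells. This order of classes is a description, since the classes were drawn from the same cells.

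**Figure D1:**
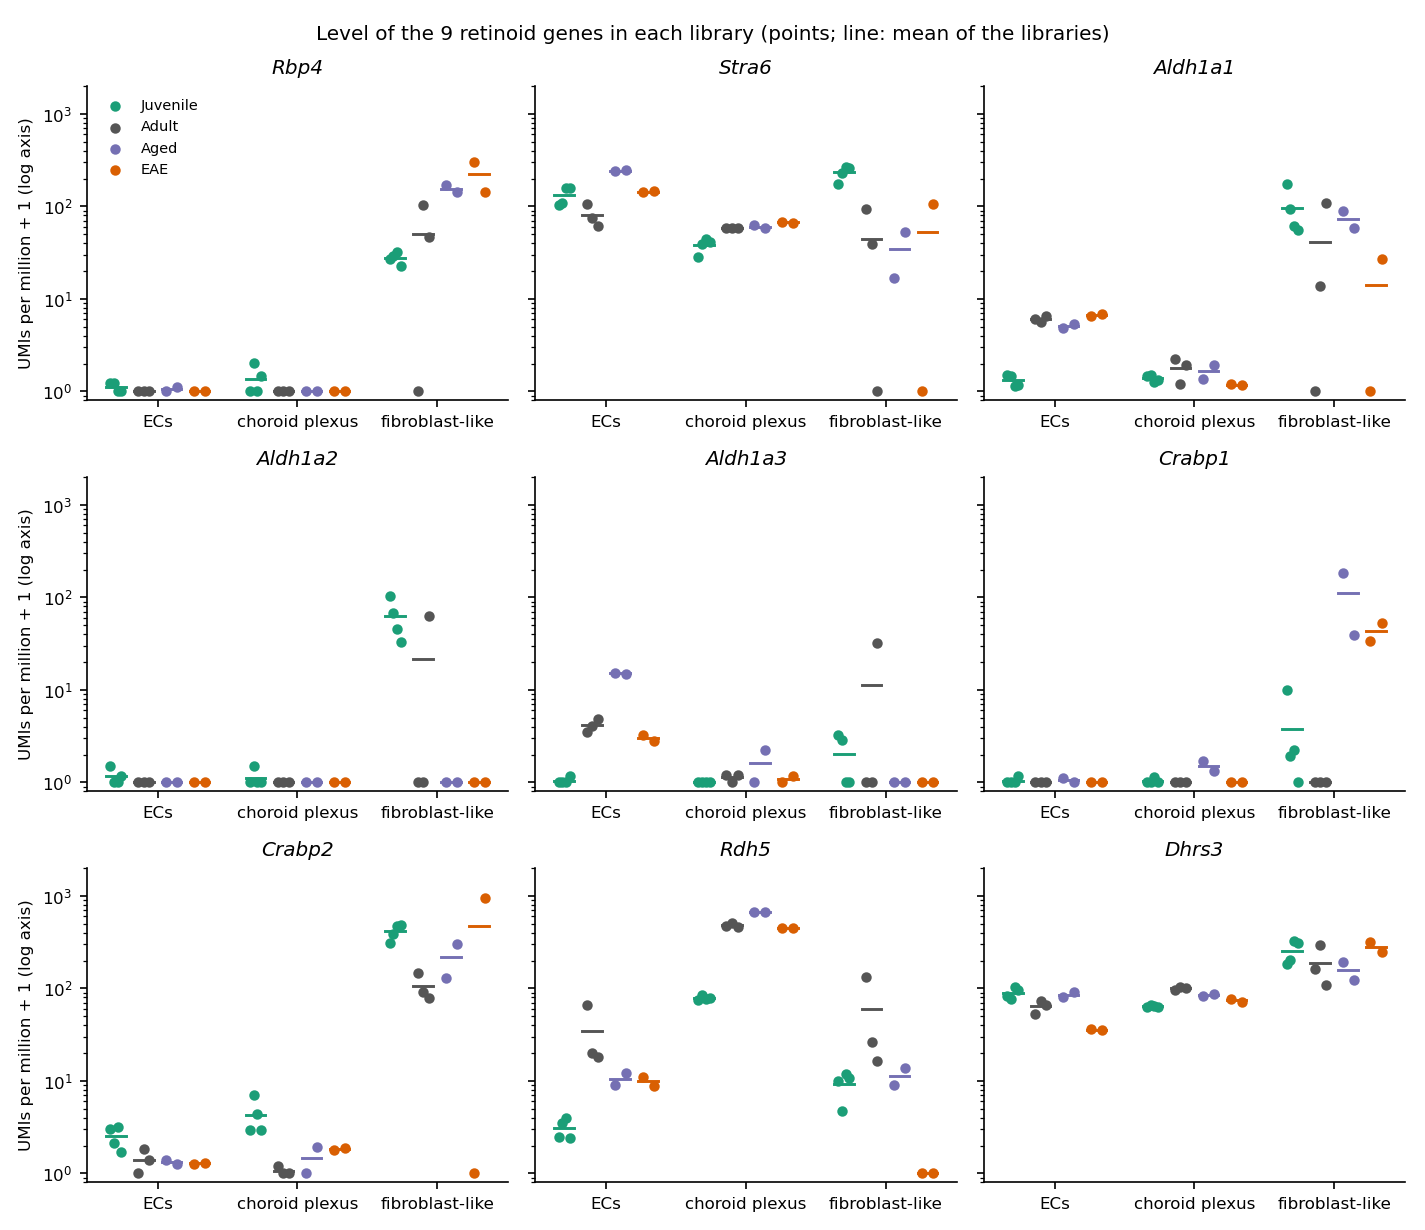
Level of each of the 9 genes in ECs, choroid plexus and fibroblast-like cells, in CPM plus 1 on a log axis, with a point for each library and a line at the mean of the libraries of a group. Stra6 in ECs sits at 238 and 245 in the Aged libraries and at 61.0 to 106 in the Adult libraries, and Rdh5 in choroid plexus at 73.7 to 83.2 in the Juvenile and 459 to 506 in the Adult libraries.

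Rbp4 encodes the plasma carrier of retinol. It lies at chr19:38116629-38125281 on the minus strand (GRCm38, as are the gene positions that follow). In fibroblast-like cells it stood at 25.7, 28.1, 31.1 and 21.7 CPM in Juvenile libraries 1 to 4, at 0, 102 and 46.2 in Adult libraries 1 to 3, at 168 and 141 in the Aged libraries and at 304 and 143 in the EAE libraries. Both Aged and both EAE libraries lay above every Adult library, but the Adult level rests on 11 UMIs, of which 7 came from a lone cell. Cluster 17 of these cells, described below, held all 21 Rbp4 UMIs of Aged 1 and 20 of the 28 of EAE 1. It made up 8 of 62 Adult, 18 of 75 Aged and 20 of 37 EAE cells, and the part of this mix in the Rbp4 differences was not tested. The log2 fold changes were -0.88 ± 0.67 for Juvenile (adjusted p = 0.546), 1.62 ± 0.65 for Aged (adjusted p = 0.613) and 2.26 ± 0.65 for EAE (adjusted p = 0.0979), none of which passed the threshold. The EAE difference passed it in DESeq2 (adjusted p = 0.0186), without the filter on low counts (adjusted p = 0.00111) and without Adult 2 (adjusted p = 0.0484). ECs held 3 Rbp4 UMIs in all and choroid plexus 5, at most 1.01 CPM in every library.

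Stra6 encodes the cell-surface receptor that takes up retinol from retinol binding protein. The gene lies at chr9:58063788-58153996 on the plus strand and overlaps Ccdc33 on the other strand. ECs held 102, 109, 158 and 157 CPM in Juvenile libraries 1 to 4, 106, 73.8 and 61.0 in Adult libraries 1 to 3, 238 and 245 in the Aged and 141 and 144 in the EAE libraries. Aged and EAE libraries were all above all Adult libraries, while Juvenile 1 lay between Adult 2 and Adult 1. Stra6 rose in Aged ECs by a log2 fold change of 1.61 ± 0.24 (adjusted p = 0.00775), a ratio of mean levels of 2.78. In EAE it rose by 1.03 ± 0.24 (adjusted p = 0.0143), a ratio of 1.64. In Juvenile ECs it rose by 0.94 ± 0.23 (adjusted p = 0.0111), and by 0.57 ± 0.17 without the libraries with Y-linked transcripts (adjusted p = 0.0254). Leaving out either EAE library ended the EAE call (adjusted p of at most 0.0827), with the remaining library then assumed to vary like the other groups.

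The share of ECs with a Stra6 UMI, after thinning every cell to 1500 UMIs, was 14.7% of 2819 Juvenile, 8.95% of 4024 Adult, 26.8% of 4929 Aged and 18.2% of 6026 EAE cells (95% exact binomial intervals of 13.4 to 16.05, 8.08 to 9.87, 25.5 to 28.0 and 17.2 to 19.2%, which cover counting error only). Without thinning, at median depths of 5775, 3047, 2338 and 2364 UMIs, the shares were 39.4, 17.7, 37.6 and 27.3%. Microglia, which are not known to use this receptor, had 0.515 to 1.74% after thinning at median depths of 2916.5 to 3263 UMIs, so the EC shares are above that of free RNA. Cells of below 1500 UMIs were left out of the shares, 1.16% of Juvenile, 4.53% of Adult, 12.9% of Aged and 12.8% of EAE ECs.

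ECs formed 5 clusters. Cluster 2 (leading genes Aplnr, Fscn1 and Apln) held 2776 of the 2852 Juvenile ECs, and cluster 26 (Lcn2, Lrg1, Ch25h) held 5205 of the 6914 EAE and 2813 of the 5659 Aged ECs. Stra6 was lowest in cluster 19 (Cytl1, Mgp, Pi16), at 20.4 to 36.1 CPM in Adult, 51.4 to 103 in Aged and 29.4 to 38.6 in EAE libraries. In cluster 20, led by haemoglobin genes, Adult libraries stood at 61.2 to 116, Aged at 256 and 269 and EAE at 205 and 208. In cluster 26 the same groups stood at 76.5 to 82.8, at 251 and 261, and at 136 and 139. The Aged libraries were thus above the Adult libraries within each of these clusters, and the EAE libraries in clusters 20 and 26, a description with no test.

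**Figure D2:**
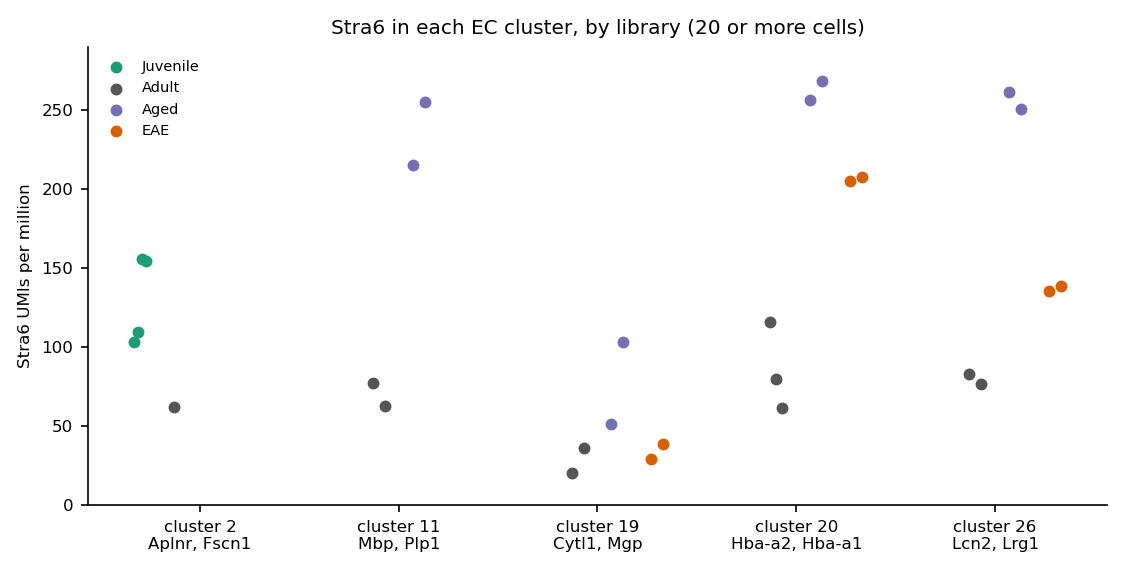
Stra6 in CPM (vertical axis) in each EC cluster (horizontal axis, with its leading genes), with a point for each library that has 20 or more cells in the cluster. The Aged points lie above the Adult points in clusters 11, 19, 20 and 26, and the Adult and EAE points of cluster 19 lie between 20.4 and 38.6.

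Transcripts of other cells moved with these groups. The 5 red blood cell markers summed to 830 CPM in Adult, 5888 in Aged and 901 in EAE ECs, and the 6 neutrophil markers to 39.1, 225 and 187. Oligodendrocyte markers went the other way, with sums of 166, 27.4 and 5.04 over 5 genes. In Juvenile ECs the red blood cell markers summed to 2502, the oligodendrocyte markers to 35.4, the 10 fibroblast-like markers to 92.4 (40.8 in Adult) and the 7 astrocyte markers to 221 (108 in Adult). The part of these transcripts in the Stra6 and Dhrs3 differences was not tested. Stra6 itself stood at 15.03 and 31.3 CPM in red blood cells and 19.7 and 21.3 in neutrophils of the Aged libraries, all below Aged ECs.

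In choroid plexus epithelial cells Stra6 stood at 27.6, 37.8, 43.4 and 40.5 CPM in Juvenile, 57.8, 57.6 and 58.1 in Adult, 61.3 and 57.6 in Aged and 66.8 and 65.3 in EAE libraries. The Juvenile libraries were all below the Adult libraries, and the Aged libraries overlapped them. Stra6 fell in Juvenile choroid plexus by 0.73 ± 0.12 on the log2 scale (adjusted p = 6.68e-05), and by 0.96 without the libraries with Y-linked transcripts (adjusted p = 0.000963). The differences of Aged (0.04 ± 0.14, adjusted p = 0.939) and EAE (0.07 ± 0.13, adjusted p = 0.711) did not pass the threshold.

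The Stra6 changes of ECs and choroid plexus were opposite in sign in Juvenile and of the same sign in Aged and EAE, and the difference between classes was tested in a fit of the 3 classes with the library as a block. Choroid plexus minus EC came to -1.64 ± 0.24 in Juvenile (adjusted p = 2.19e-05), -1.61 ± 0.26 in Aged (adjusted p = 0.00412) and -0.90 ± 0.25 in EAE (adjusted p = 0.0210). Of 15294 genes in this fit, 40.1, 1.29 and 16.4% were called in the same 3 terms. Fibroblast-like cells held 174, 231, 267 and 261 CPM of Stra6 in Juvenile libraries, 93.4, 38.4 and 0 in Adult, 15.996 and 51.4 in Aged and 0 and 104 in EAE libraries. All Juvenile libraries lay above all the others there, but the log2 fold change of 2.34 ± 0.71 against 10 UMIs in Adult cells did not pass the threshold (adjusted p = 0.136). In fibroblast-like cells the red blood cell markers summed to 5949, 1092, 23465 and 77.0 CPM in Juvenile, Adult, Aged and EAE. The astrocyte markers summed to 3458, 2593, 1521 and 616 and the mural markers to 1766, 803, 377 and 675. Their part in the fibroblast-like differences was not tested. Without the filter on low counts the Juvenile Stra6 fold change did pass (adjusted p = 1.03e-07). The fibroblast-like change was higher than that of choroid plexus by 3.25 ± 0.53 (adjusted p = 0.000832, a term in which 5.62% of genes were called). The fit of the 3 classes takes 1 spread per gene over all of them, and 0.53 is below the 0.71 of the fibroblast-like change alone. Its terms with fibroblast-like cells may therefore understate the spread of those cells.

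Rdh5 encodes a cis-retinol dehydrogenase best known from the visual cycle of the retinal pigment epithelium. It lies at chr10:128913593-128922888 on the minus strand and overlaps Bloc1s1 on the same strand, so that the assignment of reads between them is uncertain. Choroid plexus epithelial cells held 73.7, 83.2, 75.8 and 78.2 CPM in Juvenile, 471, 506 and 459 in Adult, 676 and 669 in Aged and 449 and 452 in EAE libraries. Juvenile libraries were far below all the others, and Aged libraries above all the others. Rdh5 fell in Juvenile choroid plexus by 2.79 ± 0.11 on the log2 scale (adjusted p = 1.17e-11), to 0.163 of the Adult level, and by 2.74 without the libraries with Y-linked transcripts (adjusted p = 1.51e-07). It rose in Aged cells by 0.49 ± 0.12 (adjusted p = 0.0383), a ratio of 1.41. This call was lost in 10 of 24 alternatives, over which the fold change ranged from 0.45 to 0.56 and the adjusted p reached 0.270. The libraries whose omission lost it were Juvenile 3, Juvenile 4, Adult 3 and each Aged and EAE library. The EAE difference of -0.20 did not pass the threshold (adjusted p = 0.193).

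After thinning, 10.7% of 1991 Juvenile, 50.1% of 2607 Adult, 59.5% of 797 Aged and 49.6% of 861 EAE choroid plexus cells had an Rdh5 UMI, with exact binomial intervals of 9.42 to 12.2, 48.1 to 52.0, 56.0 to 62.9 and 46.2 to 53.0%. The shares in microglia were 0.728, 6.54, 2.04 and 1.34%. The class had 2 clusters, of which cluster 7 held 1667 Juvenile cells and cluster 12 the other 333, with 2799 Adult, 823 Aged and 868 EAE cells. In cluster 12 Juvenile 3 and 4, the libraries with Y-linked transcripts, stood at 82.7 and 109, against 469 to 513 in Adult libraries. Juvenile 1 and 2 had too few cells there, at 9 and 7. The low Juvenile level was thus also present in the cluster that the other groups filled, as seen in Juvenile 3 and 4 only.

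In ECs Rdh5 stood at 1.49, 2.50, 2.996 and 1.44 CPM in Juvenile, 64.5, 18.8 and 17.3 in Adult, 8.06 and 11.1 in Aged and 9.98 and 7.90 in EAE libraries. Juvenile libraries were the lowest and Adult libraries the highest, and the Juvenile log2 fold change of -3.73 ± 0.57 passed the threshold (adjusted p = 0.00143). It came to -2.96 without Adult 1 (adjusted p = 1.35e-05), and to -3.51 without the Juvenile libraries with Y-linked transcripts, where the call was lost (adjusted p = 0.0510). The Aged (-1.70, adjusted p = 0.119) and EAE differences (-1.62, adjusted p = 0.0599) did not pass, though both did in DESeq2 (adjusted p = 0.00140 and 0.000446). Without Adult 1 they came to -0.92 (adjusted p = 0.0564) and -0.84 (adjusted p = 0.0369). Ttr, the abundant choroid plexus transcript for transthyretin, stood at 3827 to 45764 CPM in ECs against 300807 to 361673 in choroid plexus, and was highest in the Adult ECs as Rdh5 was. Juvenile 3 and 4 ECs, at 8328 and 7876, held more Ttr than the Aged and EAE ECs (5538 to 7608) with less Rdh5. The number of Rdh5 UMIs per 1000 Ttr UMIs in ECs was 0.691 to 2.36 times that of choroid plexus in the same library (the highest in Juvenile 2, from 11 UMIs), with a median of 0.784, where Stra6 was 12.9 to 349 times higher. The thinned share of ECs with an Rdh5 UMI, 0.355, 2.91 and 1.3999% in Juvenile, Adult and Aged cells, was below that of microglia (0.728, 6.54 and 2.04%), at median depths of 5775, 3047 and 2338 UMIs in ECs and 2916.5, 3156 and 2954 in microglia. The 1.54% of EAE ECs lay within the interval of EAE microglia (0.903 to 1.90%). These shares pool libraries in unequal parts, since Adult 1 gave 179 of the 4024 thinned Adult ECs and 283 of the 596 microglia. In Adult libraries 1 to 3, microglia held 63.2, 17.6 and 44.9 CPM of Rdh5, against 64.5, 18.8 and 17.3 in ECs. Within Adult 1 and 2 the levels of ECs were thus not below those of microglia. With shares below those of microglia or within their interval, the EC values of Rdh5 are not read as expression or as a difference in ECs, and the part of free RNA in them was not tested.

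**Figure D3:**
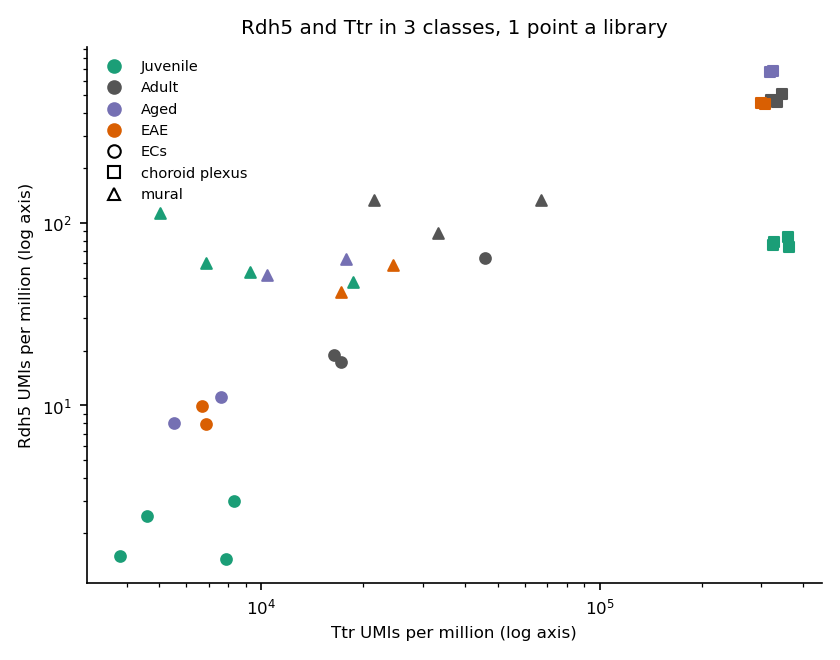
Rdh5 against Ttr, both in CPM on log axes, in ECs (circles), choroid plexus epithelial cells (squares) and mural cells (triangles), with a point for each library. The Juvenile choroid plexus points sit at 73.7 to 83.2 on the Rdh5 axis with Ttr as high as in the other groups, and the EC points with the most Ttr also hold the most Rdh5.

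Dhrs3 encodes a retinal reductase that turns retinal back to retinol, and is itself a known target of retinoic acid. The gene lies at chr4:144892827-144928209 on the plus strand. ECs held 82.4, 76.7, 102 and 94.1 CPM in Juvenile, 51.9, 71.5 and 64.9 in Adult, 79.4 and 90.0 in Aged and 35.6 and 34.1 in EAE libraries. No library of another group lay within the Adult range, with EAE below it and Juvenile and Aged above. Dhrs3 rose in Juvenile ECs by 0.62 ± 0.14 (adjusted p = 0.00500), and by 0.37 without the libraries with Y-linked transcripts (adjusted p = 0.0494). In EAE ECs it fell by 0.71 ± 0.16 on the log2 scale (adjusted p = 0.00630), a call lost when either EAE library was left out (adjusted p of at most 0.0706). Within cluster 26, which held most EAE ECs, Dhrs3 stood at 30.7 and 30.7 CPM in EAE and 66.5 and 58.9 in Adult libraries. The groups overlapped in cluster 19, at 62.1 and 113 in EAE and 86.6 and 88.1 in the Adult libraries with at least 20 cells there, and in cluster 20, at 64.6 and 38.5 and at 49.0 to 73.8. In ECs the 8 microglial markers summed to 103 CPM in Adult and 74.5 in EAE, the 7 perivascular macrophage markers to 44.6 and 21.9, and the 6 monocyte or macrophage markers to 24.5 and 121, and their part in the EAE difference was not tested. The Aged difference of 0.40 did not pass (adjusted p = 0.155).

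Choroid plexus epithelial cells held 62.6, 64.6, 63.2 and 62.1 CPM of Dhrs3 in Juvenile, 95.2, 101 and 100.3 in Adult, 81.2 and 85.1 in Aged and 75.3 and 70.8 in EAE libraries. The Adult libraries were the highest of all. Dhrs3 fell in Juvenile choroid plexus by 0.81 ± 0.10 (adjusted p = 6.51e-06) and in EAE by 0.55 ± 0.12 (adjusted p = 0.00185) on the log2 scale, while the Aged difference of -0.24 did not pass (adjusted p = 0.412). Without the libraries with Y-linked transcripts the Juvenile value was -0.76 (adjusted p = 0.00361). Markers of other cells were also lower in these choroid plexus cells, with the 8 microglial markers summing to 218 CPM in Adult, 85.1 in Juvenile and 56.1 in EAE, the 7 perivascular macrophage markers to 101, 20.5 and 16.9, and the 10 EC markers to 1905, 594 and 631. Their part in the Dhrs3 differences was not tested. Juvenile ECs and choroid plexus thus moved in opposite directions, and choroid plexus minus EC came to -1.44 ± 0.17 (adjusted p = 2.11e-11). In Aged cells the same term was -0.71 ± 0.18 (adjusted p = 0.0295).

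In fibroblast-like cells Dhrs3 stood at 183, 203, 324 and 308 CPM in Juvenile, 160, 295 and 108 in Adult, 192 and 122 in Aged and 315 and 248 in EAE libraries. The Adult libraries spanned most of that range, and no difference from Adult passed the threshold. The Juvenile change in these cells was higher than that in choroid plexus by 1.46 ± 0.25 (adjusted p = 2.87e-05). Free RNA cannot be read from microglia for Dhrs3, since 20.5 to 46.5% of them held a UMI after thinning, more than ECs at 4.91 to 13.6%. Per 1000 Ttr UMIs, EAE 1 and 2 held 5.32 and 4.97 Dhrs3 UMIs in ECs and 6.93 and 5.33 in monocytes or macrophages. B lineage cells held 4.20 and 5.27, T or natural killer cells 3.53 and 3.21, and neutrophils 2.41 and 3.63. The EAE EC values were thus near those of other cell types. Choroid plexus makes Ttr, so this ratio is not used there. The part of free RNA in the Dhrs3 differences was not tested.

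Aldh1a3 encodes a retinal dehydrogenase that makes retinoic acid, at chr7:66390890-66427517 on the minus strand. ECs held 0, 0, 0 and 0.180 CPM in Juvenile, 2.53, 3.04 and 3.84 in Adult, 14.4 and 13.996 in Aged and 2.24 and 1.81 in EAE libraries. The groups did not overlap, with Aged the highest and Juvenile nearly empty. In Aged ECs Aldh1a3 rose by 2.08 ± 0.34 on the log2 scale (adjusted p = 0.00474), from 52 UMIs in Adult to 221 in Aged cells, a ratio of 4.76 of the mean levels. Leaving out either Aged library ended the call (adjusted p of at most 0.0644). In Juvenile ECs, with 1 UMI in 2852 cells, the ratio to Adult was 0.0145 (95% interval of 0.000360 to 0.0844 from counting alone, adjusted p = 3.11e-05, and 0.000289 without the libraries with Y-linked transcripts). The EAE difference of -0.55 did not pass (adjusted p = 0.303).

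The thinned share of ECs with an Aldh1a3 UMI was 1.89% of 4929 Aged cells (1.53 to 2.31%), 0.497% of 4024 Adult cells (0.304 to 0.767%) and 0.199% of 6026 EAE cells (0.103 to 0.348%). No thinned microglial cell of any group held a UMI, which allows a share of up to 0.306% in the 979 Aged and 0.503% in the 596 Adult microglia. The Aged EC share of 1.89% lies above that of Aged microglia. The Adult EC share of 0.497% lies within the limit, which the number of microglia sets. These Adult shares therefore do not decide whether ECs stand above free RNA. Before thinning, Adult libraries held Aldh1a3 at 0 CPM in microglia and 0 to 0.205 in choroid plexus. Adult neurons or neuroblasts (0 to 7.34) and fibroblast-like cells (0 to 30.8) reached above ECs, and the part of free RNA was not tested. Aged libraries held 12.7 to 18.7 CPM of Aldh1a3 in EC clusters 11, 20 and 26 and 9.35 to 16.4 in cluster 19, so the transcript was not limited to a cluster. Of 93 thinned Aged ECs with Aldh1a3, 12 also held Stra6, where 24.9 would be met if the genes were independent. Choroid plexus stayed at or below 1.27 CPM, and fibroblast-like cells held 4 UMIs in Juvenile and 2 in Adult libraries.

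Aldh1a1 and Aldh1a2 encode the other enzymes that oxidise retinal to retinoic acid, at chr19:20492715-20643465 and chr9:71215789-71296243, both on the plus strand. Aldh1a1 stood at 175, 93.7, 59.7 and 53.9 CPM in Juvenile fibroblast-like cells, at 0, 12.8 and 108 in Adult, 88.0 and 57.8 in Aged and 0 and 26.1 in EAE libraries. These ranges overlapped, and no difference from Adult was called. Aldh1a2 stood at 103, 67.4, 44.5 and 32.2 in Juvenile and at 0, 0 and 61.7 in Adult libraries, the last from 4 UMIs in a lone cell. Neither the Aged nor the EAE fibroblast-like cells held an Aldh1a2 UMI, and the gene, with 3 UMIs in all in ECs and 1 in choroid plexus, passed the filter on low counts in no class.

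In ECs Aldh1a1 stood at 0.498, 0.454, 0.158 and 0.180 CPM in Juvenile, 5.06, 4.70 and 5.49 in Adult, 3.90 and 4.33 in Aged and 5.595 and 5.81 in EAE libraries. The Juvenile libraries lay below all the others, with 6 UMIs against 78 in Adult cells. Thinned Adult ECs held Aldh1a1 in 0.398% of cells, a share within the limit of 0.503% that 0 of 596 Adult microglia allows. That limit is set by the number of microglia and does not decide whether the share exceeds free RNA. Before thinning, 18 of the 47 Adult ECs with the transcript held at least 2 UMIs of it. Aldh1a1 fell in Juvenile ECs by 3.95 ± 0.42 on the log2 scale (adjusted p = 1.59e-05), and by 3.29 without the libraries with Y-linked transcripts (adjusted p = 0.000470). The Juvenile change in fibroblast-like cells was higher than that in ECs by 5.31 ± 0.73 (adjusted p = 1.62e-07, a term in which 1.82% of genes were called). This difference rests on 8 Adult UMIs in fibroblast-like cells, whose spread the fit of the 3 classes may understate. Levels in choroid plexus stayed at or below 1.23 CPM, and the difference there from the EC change, 2.67 ± 1.05 (adjusted p = 0.0345), rests on 6 Juvenile and 18 Adult UMIs.

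Crabp1 and Crabp2 encode cellular retinoic acid binding proteins, at chr9:54764748-54773110 and chr3:87948666-87953376, both on the plus strand. CRABP2 carries retinoic acid to its nuclear receptors, and CRABP1 holds it in the cytosol. Crabp2 stood at 305, 385, 472 and 483 CPM in Juvenile fibroblast-like cells, at 147, 89.7 and 77.1 in Adult, 128 and 302 in Aged and 0 and 951 in EAE libraries. Juvenile libraries were above all Adult libraries, and the EAE libraries were the lowest and the highest of all. Of the 73 Crabp2 UMIs of EAE 2, 67 came from a lone cell. Fold changes of 1.97 ± 1.26 for Juvenile (adjusted p = 0.485), 0.98 ± 1.45 for Aged (adjusted p = 0.894) and 2.15 ± 1.42 for EAE (adjusted p = 0.501) did not pass the threshold, with the EAE value at 3.22 without EAE 1 (adjusted p = 0.0205). The thinned share of cells with Crabp2 was 42.0% of 954 Juvenile, 11.4% of 35 Adult, 23.3% of 60 Aged and 6.06% of 33 EAE fibroblast-like cells, with intervals of 38.9 to 45.2, 3.20 to 26.7, 13.4 to 36.0 and 0.743 to 20.2%.

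Choroid plexus epithelial cells held Crabp2 at 1.94, 6.05, 3.37 and 1.91 CPM in Juvenile and 0.205, 0 and 0 in Adult libraries. The 52 Juvenile against 2 Adult UMIs gave a ratio of 29.9 (95% interval of 7.86 to 253 from counting alone, adjusted p = 0.000143, and 0.00264 without the libraries with Y-linked transcripts). Both Adult UMIs came from Adult 1, and the log2 fold change ran from 4.15 to 6.98 over the alternatives. The 10 fibroblast-like markers summed to 992 CPM in Juvenile and 428 in Adult choroid plexus cells, and 0.552% of thinned Juvenile choroid plexus cells held Crabp2 against 0.394% of Juvenile microglia, whose interval of 0.210 to 0.673% holds that value. The choroid plexus level of Crabp2 is therefore not told apart from that of free RNA, whose part in the call was not tested. In ECs Crabp2 stood at 1.99, 1.13, 2.21 and 0.721 CPM in Juvenile, 0, 0.8293 and 0.412 in Adult, 0.390 and 0.254 in Aged and 0.280 and 0.286 in EAE libraries, at most 14 UMIs each, and no difference passed the threshold (adjusted p = 0.1004 in Juvenile). Crabp1 was found in Aged fibroblast-like cells at 184 and 38.5 CPM, from 23 and 6 UMIs, and in EAE at 32.6 and 52.1, from 3 and 4 UMIs. The Adult libraries held none, and the Juvenile libraries 8.93, 0.937, 1.22 and 0. The gene passed the filter on low counts in no class.

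Fibroblast-like cells fell into 2 clusters, and the levels of members in each are described here. Cluster 6 (leading genes Nov, Igfbp6 and Slc47a1) held 804 Juvenile, 54 Adult, 57 Aged and 17 EAE cells, and cluster 17 (Vtn, Slc6a13, Tcf21) held 168, 8, 18 and 20. In the 4 Juvenile libraries Crabp2 stood at 493 to 566 CPM in cluster 6 and 24.99 to 115 in cluster 17, Stra6 at 224 to 316 and 9.84 to 99.98, and Dhrs3 at 261 to 351 and 66.7 to 138. The synthesis enzymes showed the reverse, with Aldh1a1 at 7.47 to 16.7 in cluster 6 and 259 to 425 in cluster 17, and Aldh1a2 at 0.906 to 33.6 and 182 to 295. Rbp4 was at 16.3 to 26.4 and 36.1 to 64.5. None of these 6 genes overlapped between the clusters. The share of all genes that do not overlap was not counted, so the division is not read as particular to the members. Rdh5 overlapped, at 0 to 10.4 and 7.16 to 14.8, and so did Aldh1a3 and Crabp1, at 19.4 CPM or less. The clusters were drawn without the members, although the genes that drew them come from the same cells, so that no test is given.

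**Figure D4:**
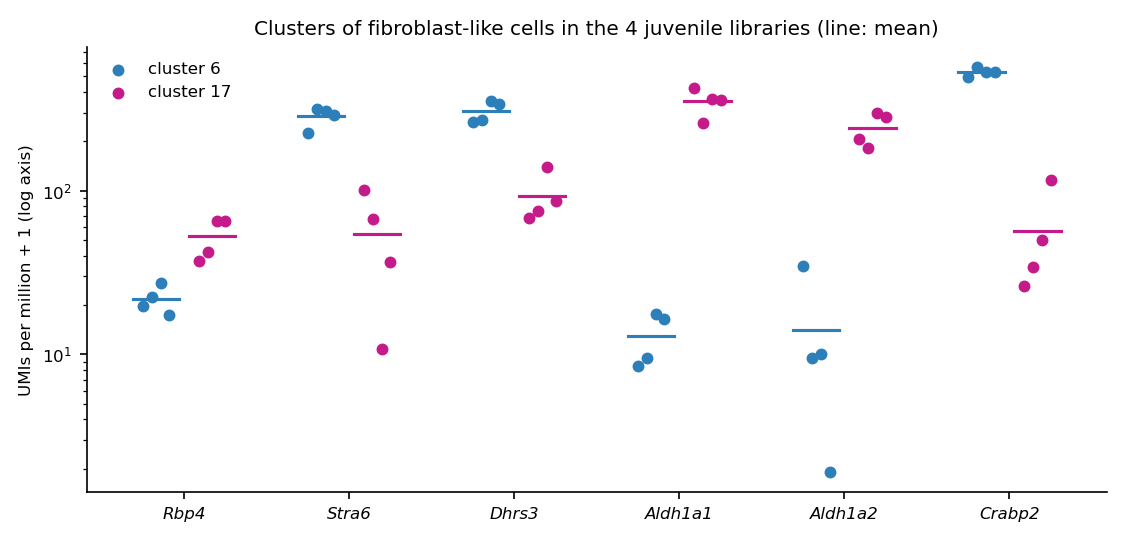
Level of 6 members in clusters 6 and 17 of fibroblast-like cells in the 4 Juvenile libraries, in CPM plus 1 on a log axis, with a point for each library and a line at the mean. Stra6, Dhrs3 and Crabp2 are higher in cluster 6 in every library, and Rbp4, Aldh1a1 and Aldh1a2 in cluster 17, as with Aldh1a1 at 259 to 425 against 7.47 to 16.7.

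Detection in cells gave the following counts. Of 954 thinned Juvenile fibroblast-like cells, 67 held Aldh1a1 and 45 held Aldh1a2, and 14 held both where 3.16 would be met if the genes were independent. Stra6 and Crabp2 were both held by 142 cells against 102, and Aldh1a1 and Crabp2 by 14 against 28.2. The expected counts were taken over both clusters together, so these counts are not separate from the division between clusters. Cluster 17 made up 168 of 972 Juvenile, 8 of 62 Adult, 18 of 75 Aged and 20 of 37 EAE fibroblast-like cells. Its share was 37.0, 28.8, 9.66 and 10.2% in Juvenile libraries 1 to 4. The part of these shares in the levels of the whole class was not tested. In cluster 17, Aged 1 (10 cells) held Rbp4 at 378, Crabp1 at 414 and Aldh1a1 at 162 CPM, and EAE 1 (11 cells) held Rbp4 at 376 and Crabp1 at 56.5, with no UMI of Aldh1a1 or Aldh1a2.

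Over ECs, 6 of the 9 members passed the filter on low counts. Of these, 5 were called in Juvenile (2 higher, 3 lower, where 37.1% of all 13412 genes tested were called, and 1 of the lower calls is Rdh5, whose EC share lay below that of microglia), 2 in Aged (both higher, 5.29% of all genes) and 2 in EAE (1 higher, 1 lower, 24.6% of all genes). In choroid plexus 4 members passed the filter, and 4 were called in Juvenile (1 higher, 3 lower, 57.2% of 12964 genes, with the higher call being Crabp2, whose share lay within the interval of microglia), 1 in Aged (higher, 1.76%) and 1 in EAE (lower, 33.8%). The Juvenile and EAE counts are therefore to be read against backgrounds in which a large share of all genes was called. Of the lower Juvenile EC calls, Aldh1a1 and Aldh1a3 start from Adult EC shares within the limit that Adult microglia allow. That limit is set by the number of microglia and does not decide whether these shares exceed free RNA. Genes called higher and lower made up 18.6 and 18.6% in Juvenile, 2.19 and 3.1% in Aged and 13.8 and 10.9% in EAE ECs, and 28.1 and 29%, 0.71 and 1.05%, and 16.3 and 17.4% in choroid plexus in the same order. The samples of the groups did not overlap for 5 of the 6 members in each EC contrast, as for 55.2, 51.1 and 62.7% of all genes, and for 4, 2 and 4 of the 4 members in choroid plexus, as for 69, 39.1 and 67.3% of genes. In fibroblast-like cells 5 members passed the filter and edgeR called 0 in each contrast, where 1.37, 0 and 1.61% of 3355 genes were called (0.537, 0 and 0.686% higher, 0.835, 0 and 0.924% lower). Before adjustment 571, 261 and 605 of these genes had p under 0.05, and in the Aged contrast DESeq2 called 9. There 2 of the 5 members did not overlap in each contrast, as for 40.9, 36.9 and 45.2% of genes. In the fit of the 3 classes, the terms that set fibroblast-like cells against ECs called 1.82% of genes in Juvenile, 0.111% in Aged and 0.523% in EAE, and those against choroid plexus 5.62, 0.0981 and 0.713%. Scaling to plain totals moved the median log2 fold change of all genes by -0.10 in Juvenile and -0.17 in EAE ECs and by 0.17 and 0.12 in choroid plexus, and all calls of members held under it.

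**Figure D5:**
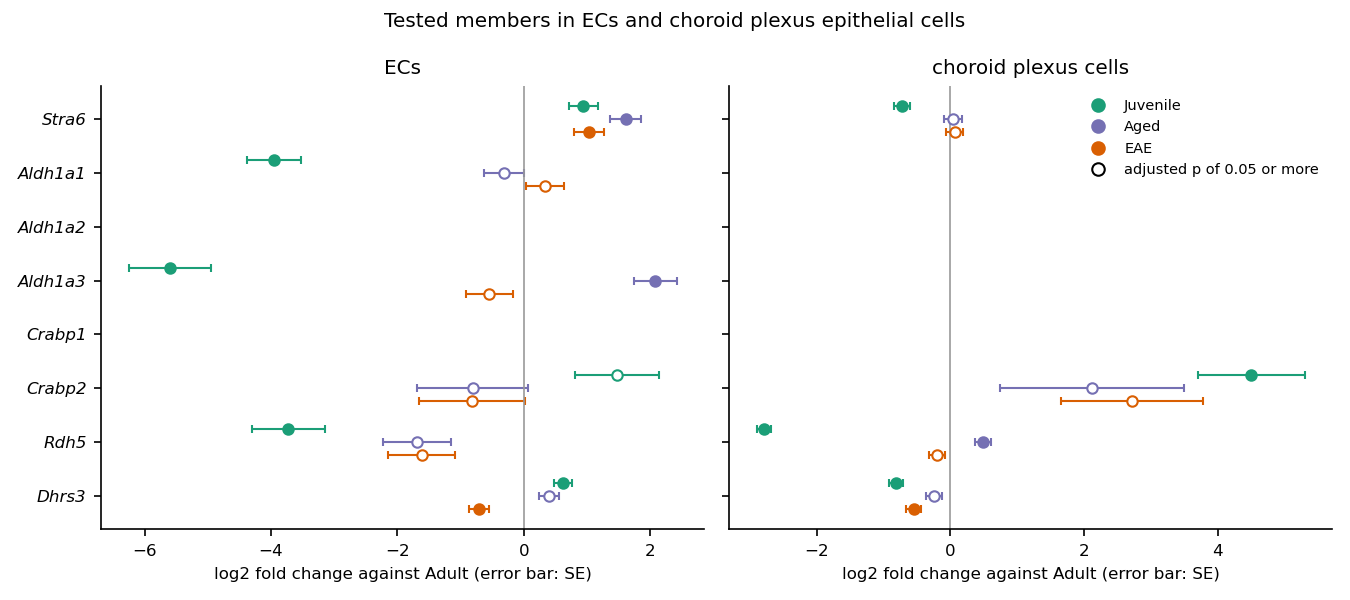
Log2 fold change against Adult of the members that passed the filter in ECs (left) and choroid plexus epithelial cells (right), with the SE as error bar, filled points at an adjusted p under 0.05 and open points otherwise. Stra6 in ECs lies right of 0 in all 3 contrasts, at 0.94, 1.61 and 1.03, and Dhrs3 lies at 0.62 in Juvenile ECs and -0.81 in Juvenile choroid plexus.

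Other genes of the pathway were counted from lists of 60 genes, of which 54 were in the files. In Aged ECs 2 of 36 tested were called, both higher, where 5.29% of all genes were called, a share near that of the lists. Cyp26b1, the enzyme that breaks down retinoic acid, stood at 2.54 and 2.60 CPM against 0 and 0.138 in the Adult samples (log2 fold change of 4.13 ± 0.85, adjusted p = 0.0153), from 40 against 2 UMIs. Tgm2, a transglutaminase, stood at 302 and 307 against 166 and 202 (0.70 ± 0.13, adjusted p = 0.0108). The median log2 fold change was 0.05 over the 36 genes and -0.00084 over all genes.

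In EAE ECs 7 of 36 rose and 5 fell, where 13.8 and 10.9% of all genes did. Lrat, which esterifies retinol for storage, held 152 UMIs against 0 in Adult cells, at least 36.5-fold higher against a floor of 3 counts over the group (adjusted p = 0.000339). Lpl, a lipoprotein lipase, rose from 1.85 to 18.4 CPM (4.01 ± 0.37, adjusted p = 9.41e-06), Pnpla2 from 124 to 343 (1.67 ± 0.12, adjusted p = 1.50e-06) and Tgm2 from 184 to 397 (1.26 ± 0.13, adjusted p = 2.66e-05). Cyp26b1, Rai14 and Ppard also rose. Scarb1, Adh1, Rdh13, Rarg and Ttr fell, of which Ttr is the choroid plexus transcript described above. From Adult to EAE ECs the monocyte or macrophage markers rose from 24.5 to 121 CPM and the neutrophil markers from 39.1 to 187, while the microglial markers fell from 103 to 74.5. The part of transcripts of other cells in the changes of these genes was not tested.

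In Juvenile ECs 10 of 36 rose and 10 fell, where 18.6 and 18.6% of all genes did. Ppard, a nuclear receptor, rose from 51.8 to 100.02 CPM (log2 fold change of 1.05 ± 0.10, adjusted p = 6.07e-06). Tgm2 fell from 184 to 82.7 (adjusted p = 2.39e-05). In Juvenile choroid plexus 12 of 34 rose and 12 fell, where 28.1 and 29% of all genes did. Of its 10 tested oxidoreductases 8 fell, among them Dhrs7 by 1.97 ± 0.14 (adjusted p = 9.00e-09) on the log2 scale, while Rdh10, which makes retinal from all-trans-retinol, rose by 0.55 ± 0.11 (adjusted p = 0.000432) together with Rdh11. The receptors Rara, Rxra, Rxrb and Nr2c2, 4 of 8 in their list, rose by 0.72 to 0.84. Cyp26b1 was at 7.25 against 0.0974 (5.75 ± 0.59, adjusted p = 5.07e-07).

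In Aged choroid plexus Rdh10 (0.60 ± 0.13, adjusted p = 0.0175) and Lpl (3.03 ± 0.55, adjusted p = 0.00623) were the 2 genes called of 34, both higher, where 1.76% of all genes were called. In EAE choroid plexus 9 rose and 5 fell, where 16.3 and 17.4% of all genes did, the highest fold change being that of Lrat, at 19 against 1 UMI (ratio of 35.2, interval of 5.596 to 1463 from counting alone). No gene of these lists was called in fibroblast-like cells.

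Over 52 populations of a cell type in a condition with at least 50 cells, the gene of most similar pattern among 13461 candidates was Bsg for Stra6 (Pearson r = 0.788 of log2 levels), Kl for Rdh5 (0.839), Tmem37 for Dhrs3 (0.806), Gdf10 for Aldh1a1 (0.801), Slc22a6 for Aldh1a2 (0.830), Shisa3 for Crabp2 (0.948) and Scn7a for Crabp1 (0.880). The populations share libraries and depth, and the r values are a description. Aldh1a3 did not reach the 20 CPM needed in any population.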

How the data were processed

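The authors deposited counts: UMIs per gene and cell for 11 libraries, named per the submitters' processing notes as made with bcl2fastq 2.19.1.403, UMI-tools 0.5.3, STAR 2.5.3a and featureCounts 1.6.1 on mm10, with neither normalization nor pooling. Reads that overlap several genes could be dropped or moved between them, and 3′ tags do not separate isoforms. The study's limits on cells were applied, which are over 500 and below 6000 genes with a mitochondrial share of UMIs below 25%, and genes seen in at least 3 cells were used for clustering. Cells were clustered in scanpy 1.11.5 (2000 variable genes without the members, 12 principal components, 20 neighbours, Leiden resolution 1) without integration of libraries, and clusters were named from fixed markers. Clusters of unclear markers, 2514 cells, stayed unnamed. Scrublet marked 774 cells (1.53%) as doublets, which were kept and left out as an alternative. It marked only 0.118 and 0.105% in the Aged libraries, so doublets may remain there, and the reason for this low rate was not tested.

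UMIs were summed per library and class (at least 10 cells) and tested by robust quasi-likelihood fits in edgeR 4.0.16 under R 4.3.3, after filterByExpr and TMM scaling, with all groups in 1 fit and 5 residual degrees of freedom. Same-numbered libraries did not deviate together (correlations of -0.123 to 0.107), so no pairing was used. DESeq2 1.42.0, other scalings, no filter, other resolutions, other naming, separate libraries and leaving out each library were alternatives. Simulated counts with 200 changed genes and a dispersion of 0.02 in every class gave back 64.1, 52.3 and 47.9% of genes changed by 1 on the log2 scale in EC comparisons (Juvenile, Aged, EAE). The shares were 74.4, 52.1 and 52.0% in choroid plexus and 36.6, 14.4 and 14.3% in fibroblast-like cells. False calls made up 4.51, 1.92 and 2.11% of the calls in ECs in that order. They made up 3.97, 7.41 and 1.90% in choroid plexus and 4.29, 7.14 and 13.8% in fibroblast-like cells. The spread in the data may exceed this setting, as with the SE of 1.26 for Crabp2 in Juvenile fibroblast-like cells. The simulated shares of genes given back may therefore be too high, above all in fibroblast-like cells. Median depth per cell was 2420 to 4199.5 UMIs. The text names all 9 members, genes of the fixed pathway lists that were called, the gene of highest correlation with each member, and the leading genes of subclusters, with some genes that these rules select not reported here. Members and lists were chosen with earlier results of these data known. Promoter sequences come from RefSeq on GRCm38.p6.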

Additional observations from a re-analysis of the deposited data

Results flagged for a closer look

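Among 26 sets of 4 Juvenile libraries, 5 had a library far from the others, and chance alone flags about 1 in 20 sets of continuous values. That rate does not hold for 4 of the 5, where a lone UMI against 0 in the other libraries is always flagged. Aldh1a2 in choroid plexus of Juvenile 2 was at 0.504 CPM, Aldh1a3 and Crabp1 in ECs of Juvenile 4 each at 0.180, and Crabp1 in choroid plexus of Juvenile 3 at 0.140, all from 1 UMI with 0 in the other libraries. Crabp1 in fibroblast-like cells was at 8.93 in Juvenile 1 against 0 to 1.22 in the others.

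The change against Adult differed between classes in 9 of 81 tests of the difference itself. Over all genes, choroid plexus minus EC was called for 40.1% in Juvenile, 1.29% in Aged and 16.4% in EAE, and in Juvenile fibroblast-like minus EC for 1.82% and fibroblast-like minus choroid plexus for 5.62%. For Stra6, choroid plexus minus EC came to -1.64 in Juvenile, -1.61 in Aged and -0.90 in EAE on the log2 scale, and fibroblast-like minus choroid plexus to 3.25 in Juvenile. For Dhrs3, choroid plexus minus EC was -1.44 in Juvenile and -0.71 in Aged, and fibroblast-like minus choroid plexus 1.46 in Juvenile. Aldh1a1 had fibroblast-like minus EC at 5.31 and choroid plexus minus EC at 2.67, both in Juvenile. The terms with fibroblast-like cells may understate the spread of those cells, since the classes share 1 spread per gene.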

How the results depend on the processing

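Of 15 calls of members tried under 24 alternatives each, 343 of 360 were kept, 17 were lost and 0 turned direction. Leaving out each library gave counts of called members of 5 in Juvenile, 1 to 2 in Aged and 0 to 3 in EAE for ECs, 4, 0 to 1 and 1 to 2 for choroid plexus, 0, 0 and 0 to 1 for fibroblast-like cells, and 8 to 12 differences between classes. Counts moved by over 1.5 times in these cases. In Aged choroid plexus 0 members were called without the filter on low counts, with near-identical and close pairs summed, and without the Juvenile libraries with Y-linked transcripts, an alternative chosen after seeing the data. In EAE choroid plexus 2 were called without the filter and with the 11 libraries kept separate. Without the filter fibroblast-like cells had 2 calls in Juvenile, 1 in Aged and 1 in EAE, and 14 differences between classes were called. DESeq2 called 1 member in EAE fibroblast-like cells. Of all genes, 101 to 1108 were called in Aged ECs and 34 to 547 in Aged choroid plexus when a library was left out. The causes were not tested.

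Replicate numbers did not pair the libraries. With the 11 libraries kept separate and the numbers as a replicate block, all 15 calls were kept, and Dhrs3 in Aged ECs was also called (0.47, adjusted p = 0.0372, against 0.36 and 0.0966 with separate libraries and no block).

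Few cells stood behind the fibroblast-like comparisons, at 18 to 40 a library for each Adult, Aged and EAE value.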

Other observations

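Among the other cells of the preparation, Dhrs3 was highest in perivascular macrophages, at 436 to 536 CPM in Juvenile, 576 to 640 in Adult, 562 to 636 in Aged and 371 to 387 in EAE libraries. Microglia stood at 189 to 223 in Juvenile, 347 to 415 in Adult, 353 and 374 in Aged and 146 and 147 in EAE libraries, values given with no test. Aldh1a1 was also found in astrocytes, at 24.1 to 59.2 in Juvenile and 29.2 to 52.1 in EAE libraries, and Crabp1 in Juvenile ependymal cells at 15.4 to 24.2.

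Mural cells held Rdh5 at 47.5 to 113 CPM in Juvenile, 88.2 to 134 in Adult, 51.9 and 63.5 in Aged and 42.1 and 58.6 in EAE libraries. Their number of Rdh5 UMIs per 1000 Ttr UMIs was 1.37 to 98.1 times that of choroid plexus in the same library, with a median of 2.41, above the EC median of 0.784.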
